A study of Mus musculus with 6 samples.

Results

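Glutathione and antioxidant enzyme genes were compared in the gonadal white adipose tissue (GWAT) of ob/ob/Fsp27-/- and ob/ob mice. They were taken by a rule on gene symbols, set with earlier results of these data known. It covers every gene whose symbol starts with Gsta, Gstm, Gstk, Gsto, Gstp, Gstt, Gstz, Mgst, Gpx, Prdx or Txnrd. It also covers Sod1, Sod2, Sod3, Gclc, Gclm, Gss, Gsr, Nqo1, Txn1, Txn2 and Txnip. The rule found 49 genes of the 19937 that had a probeset of their own on the GeneChip Mouse Gene 1.0 ST array, and 1 of the 49 (Prdx6-ps2) is a pseudogene. Expression was read on 6 arrays. The 3 ob/ob/Fsp27-/- arrays came from mice that lack both leptin and Fsp27, the lipid droplet protein encoded by Cidec, and the 3 ob/ob arrays from mice that lack leptin only. Both genotypes were males aged 4 months on a chow diet and a C57BL/6J background, so leptin deficiency is shared and no lean or wild-type GWAT stands beside them. The methods describe pooled RNA from several mice on an array. The labels are silent on this, so an array stands for 1 sample here and differences from mouse to mouse cannot be read.

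Glutathione is a small thiol made from glutamate, cysteine and glycine. Glutathione transferases couple it to electrophiles such as the aldehydes that form when lipids are oxidised, glutathione peroxidases spend it to reduce peroxides, and glutathione reductase regenerates it with NADPH. Peroxiredoxins remove peroxides with electrons from thioredoxin, which thioredoxin reductases recharge, and superoxide dismutases turn superoxide into hydrogen peroxide. Many of these genes are known targets of the transcription factor Nrf2, and adipose tissue contains adipocytes, macrophages, vessels and stroma that all use them.

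Values are RMA values, a log2 measure of probeset brightness, and are compared between arrays for the same gene. A summed brightness adds the values of the genes of a list off the log scale, so bright probesets weigh most. Such sums are compared between arrays for the same list. Some genes are also set against the median of all probesets, only to mark a low reading. A gene was called higher or lower where its adjusted p (limma, Benjamini-Hochberg over 22961 probesets) was under 0.05 and its log2 fold change was at least 0.5 in size. The arrays correlated at 0.988 to 0.992 within ob/ob/Fsp27-/-, at 0.990 to 0.994 within ob/ob and at 0.943 to 0.965 between genotypes. Cidec read 11.34, 11.51 and 11.53 on the ob/ob/Fsp27-/- arrays, against 11.49, 11.78 and 11.98 on the ob/ob arrays, and was not called (log2 fold change -0.29, standard error 0.13, adjusted p = 0.157, limma). The ranges overlap, and where its single probeset lies relative to the deleted part is not given in the sources used here, so this value checks nothing about the deletion. Of 16 macrophage markers 14 fell in ob/ob/Fsp27-/- GWAT, with a summed brightness of 5524 to 6321 on the ob/ob/Fsp27-/- arrays and 27666 to 35823 on the ob/ob arrays. Of 15 adipocyte markers 10 rose and none fell (5 without ob/ob array 2, and 4 without array 2 or array 3 of ob/ob/Fsp27-/-), and their sums were 73775 to 77034 on the ob/ob/Fsp27-/- arrays and 42038 to 59450 on the ob/ob arrays. Endothelial markers rose in 4 of 8 cases (2 without ob/ob/Fsp27-/- array 2), stromal progenitor markers fell in 6 of 9 and mast cell markers in 4 of 6. In such whole tissue, fewer cells of a type and less RNA per cell cannot be told apart, and the part of these shifts in the results given here was not tested.

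Of the 49 genes, 15 rose in ob/ob/Fsp27-/- GWAT (30.6%, against 9.58% of all genes), 4 fell (8.16%, against 10.8% of all genes) and 30 were not called. Across both directions 20.4% of all genes were called. The shares over all genes include genes of every brightness and were not matched to the 49 genes for level. The arrays of the genotypes did not overlap for 33 of the 49 genes (67.3%, against 46.0% of all genes). Log2 fold changes had a median of 0.31 over the 49 genes and 0.06 over all genes. Glutathione transferases made up 9 of the 15 increases, and of the 22 measured 1 fell, with a median log2 fold change of 0.66. Another 4 increases were those of genes on a list of mitochondrial enzymes. The 4 decreases were those of Gpx1, Prdx4, Gstm1 and Prdx1. Of the 30 genes that were not called, 6 passed the adjusted p but not the fold threshold and 6 passed the fold threshold but not the adjusted p. Centring the arrays on ribosomal protein genes in place of all genes raised every log2 fold change by 0.17. Of the 49 genes 21 were then called higher and 2 lower, and of all 19937 genes 3117 higher and 1593 lower.

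**Figure D1:**
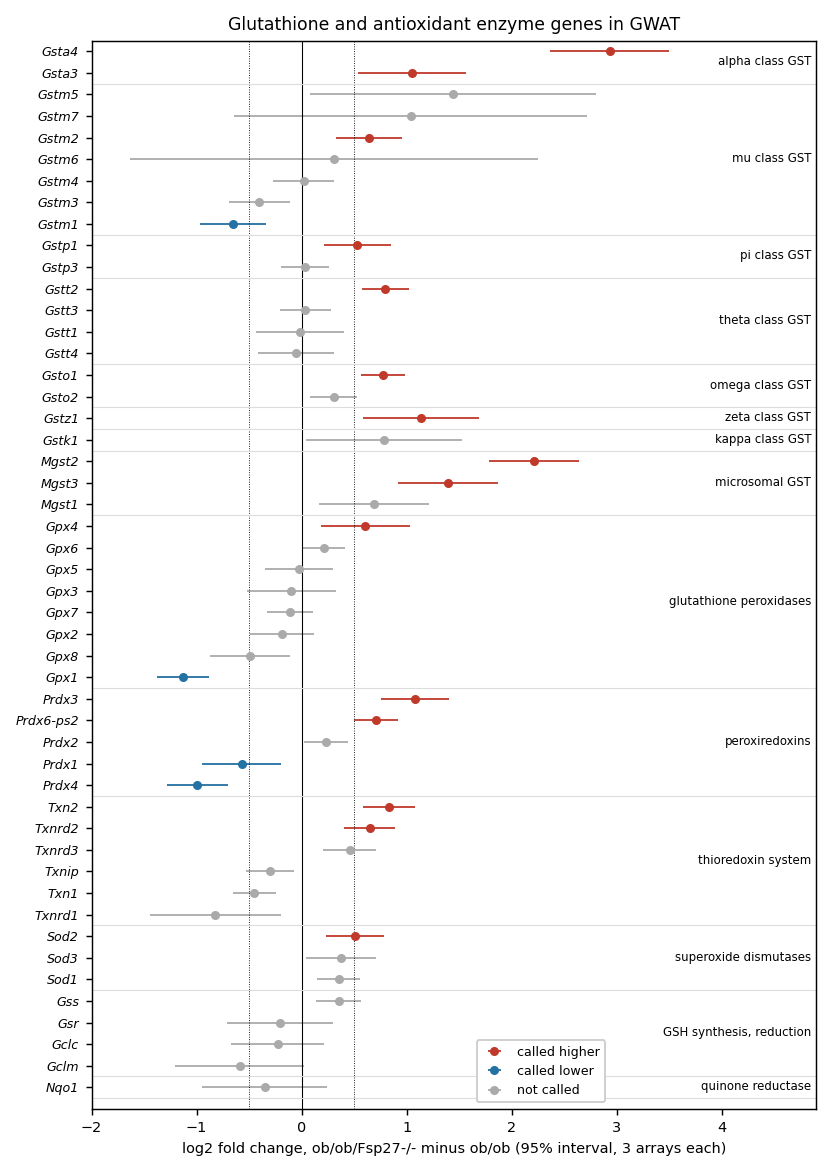
Log2 fold change of each of the 49 genes in GWAT, ob/ob/Fsp27-/- minus ob/ob, with its 95% interval from limma (3 arrays per genotype); the genes run down the page by enzyme class, colour marks the call and dotted lines mark log2 fold changes of -0.5 and 0.5. Gsta4 at 2.93 and Mgst2 at 2.21 stand farthest to the right, Gpx1 at -1.13 farthest to the left, and Gstm5, Gstm6 and Gstm7 have the widest intervals.

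Promoter sequences are shown for Gclm, Txnrd1 and Prdx1, all highest on ob/ob array 1, and for Gsta3, which rose and was lowest there. These genes were picked from those that held the letters searched for. Windows from 250 bases before to 50 bases after each annotated start were taken from RefSeq (GRCm38.p6) for 43 of the 49 genes; Gclc, Gsr, Gsta4, Gstt2, Prdx6-ps2 and Sod3 had no entry. They were searched on both strands for TGACNNNGC, the core letters of the antioxidant response element that Nrf2 binds with small Maf proteins. The letters occurred in a window of 8 of the 43 genes (18.6%), against 14.0% of 27025 genes in the whole table. The RefSeq table holds 3 windows for Txnrd1, and the 1 with the letters is printed. Genes with the letters were Gclm, Gsta3, Gstm5, Gstm7, Mgst1, Prdx1, Sod1 and Txnrd1. They included 1 of 12 genes that rose, 1 of 4 that fell and 6 of 27 that were not called. Of the other genes highest on ob/ob array 1, Nqo1, Gpx1, Txn1 and Gstp3 had windows without the letters. Gclc and Gsr had no entry. The 250 bases before the start are printed for a gene that rose, a gene that fell and 2 genes that varied between ob/ob arrays as Prdx1 did, on the strand of the gene with the matched letters in capitals.
Gsta3 (chr1:21240335-21240584, plus strand): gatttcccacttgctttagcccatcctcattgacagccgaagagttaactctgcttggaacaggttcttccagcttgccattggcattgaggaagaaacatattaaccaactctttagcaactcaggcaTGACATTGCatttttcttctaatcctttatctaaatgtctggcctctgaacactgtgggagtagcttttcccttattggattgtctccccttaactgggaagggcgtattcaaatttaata
Prdx1 (chr4:116685349-116685598, plus strand): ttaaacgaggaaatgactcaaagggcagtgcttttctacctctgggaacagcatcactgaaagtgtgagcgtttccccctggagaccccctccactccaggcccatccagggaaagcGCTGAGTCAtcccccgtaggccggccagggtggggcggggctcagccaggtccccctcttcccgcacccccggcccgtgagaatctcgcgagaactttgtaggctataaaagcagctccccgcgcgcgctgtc
Gclm (chr3:122245307-122245556, plus strand): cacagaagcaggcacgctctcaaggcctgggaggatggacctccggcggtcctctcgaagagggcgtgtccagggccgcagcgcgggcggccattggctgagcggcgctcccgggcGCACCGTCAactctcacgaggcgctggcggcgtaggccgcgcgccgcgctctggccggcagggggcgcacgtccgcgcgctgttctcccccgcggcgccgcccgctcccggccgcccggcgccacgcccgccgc
Txnrd1 (chr10:82858956-82859205, plus strand): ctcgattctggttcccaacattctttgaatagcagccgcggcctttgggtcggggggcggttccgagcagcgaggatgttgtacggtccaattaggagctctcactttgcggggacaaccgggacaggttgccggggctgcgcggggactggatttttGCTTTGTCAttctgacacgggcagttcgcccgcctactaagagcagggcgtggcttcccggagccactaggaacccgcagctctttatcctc
The match in Gsta3 lies on the strand of the gene, and those in Prdx1, Gclm and Txnrd1 on the opposite strand. In Prdx1 the matched letters overlap TGAGTCA, which fits TGANTCA, the core of sites for AP-1 factors, found in a window of 9.30% of the 43 genes and 8.97% of all genes. A match is a run of letters and does not show that a factor binds there. A window without the letters does not show that a gene lacks the element, because sequence farther from the start was not searched.

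Among the alpha class transferases both measured genes rose. Gsta4, which conjugates hydroxynonenal and other aldehydes of lipid peroxidation, read 9.29, 9.48 and 9.35 on the ob/ob/Fsp27-/- arrays, against 5.93, 6.98 and 6.42 on the ob/ob arrays. Every ob/ob/Fsp27-/- array was far above every ob/ob array, and the increase of 7.62-fold was the largest of the 49 genes (log2 fold change 2.93, standard error 0.24, adjusted p = 0.000238, limma). Gsta3, an alpha class enzyme whose promoter is printed above, read 9.21, 9.48 and 9.51 on the ob/ob/Fsp27-/- arrays, against 7.995, 8.85 and 8.20 on the ob/ob arrays. Its genotypes did not overlap either, although ob/ob array 2 came nearer to the ob/ob/Fsp27-/- arrays than the other two ob/ob arrays (log2 fold change 1.05, standard error 0.22, adjusted p = 0.0103, limma).

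The microsomal transferases are membrane proteins unrelated in sequence to the cytosolic classes, and Mgst2 can also form leukotriene C. Mgst2 read 8.60, 8.77 and 8.84 on the ob/ob/Fsp27-/- arrays, against 6.11, 6.80 and 6.67 on the ob/ob arrays. All ob/ob/Fsp27-/- values were high and close together, and the ob/ob values were lower by more than the spread of either genotype, a 4.63-fold difference (log2 fold change 2.21, standard error 0.18, adjusted p = 0.00024, limma). Mgst3, which has peroxidase as well as transferase activity, read 9.26, 9.40 and 9.30 on the ob/ob/Fsp27-/- arrays, against 7.49, 7.93 and 8.36 on the ob/ob arrays, again with no overlap and with the ob/ob arrays spread more widely than the ob/ob/Fsp27-/- arrays (log2 fold change 1.39, standard error 0.20, adjusted p = 0.00245, limma). Mgst1, a detoxifying enzyme of the endoplasmic reticulum and the outer mitochondrial membrane, averaged 11.94 ± 0.08 in ob/ob/Fsp27-/- and 11.25 ± 0.48 in ob/ob GWAT (SD, n = 3 each), and the difference of 0.69 did not pass the adjusted p (0.0553, limma). It was called higher in 6 of the 21 alternatives, among them without ob/ob array 3 (0.86, adjusted p = 0.0268, limma), and was 0.41 without ob/ob array 1.

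Single genes of several other transferase classes rose too. Gstz1, the maleylacetoacetate isomerase of tyrosine breakdown, read 11.66, 11.65 and 11.92 on the ob/ob/Fsp27-/- arrays, against 10.07, 10.72 and 11.04 on the ob/ob arrays, so that ob/ob array 1 was lowest and no value overlapped (log2 fold change 1.13, standard error 0.23, adjusted p = 0.0104, limma). Gsto1, a thiol transferase that also reduces dehydroascorbate, read 9.48, 9.41 and 9.60 on the ob/ob/Fsp27-/- arrays, against 8.62, 8.79 and 8.76 on the ob/ob arrays, with little spread in either genotype (log2 fold change 0.77, standard error 0.09, adjusted p = 0.000896, limma). Gstt2, a theta class enzyme, read 8.02, 7.89 and 7.95 on the ob/ob/Fsp27-/- arrays, against 7.03, 7.30 and 7.14 on the ob/ob arrays, and here too the genotypes lay apart (log2 fold change 0.80, standard error 0.09, adjusted p = 0.000965, limma). Gstp1, the pi class enzyme, averaged 10.20 ± 0.15 in ob/ob/Fsp27-/- and 9.67 ± 0.23 in ob/ob GWAT (SD, n = 3 each), a log2 fold change of 0.53 (adjusted p = 0.0252, limma) that was no longer called without array 2 of ob/ob (0.40), or without array 2 (0.44) or array 3 (0.56) of ob/ob/Fsp27-/-. The other theta class genes Gstt1, Gstt3 and Gstt4 and the pi class gene Gstp3 had log2 fold changes between -0.05 and 0.04 with overlapping arrays. Gsto2 differed by 0.31, past the adjusted p (0.0484, limma) but under the fold threshold. Gstk1, a transferase of mitochondria and peroxisomes, averaged 10.39 ± 0.23 in ob/ob/Fsp27-/- and 9.61 ± 0.67 in ob/ob GWAT (SD, n = 3 each), and its difference of 0.78 was not called (adjusted p = 0.112, limma) with all arrays but was called without ob/ob array 3 (1.07, adjusted p = 0.0309, limma), and it was 0.41 without ob/ob array 1 (adjusted p = 0.166, limma).

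**Figure D2:**
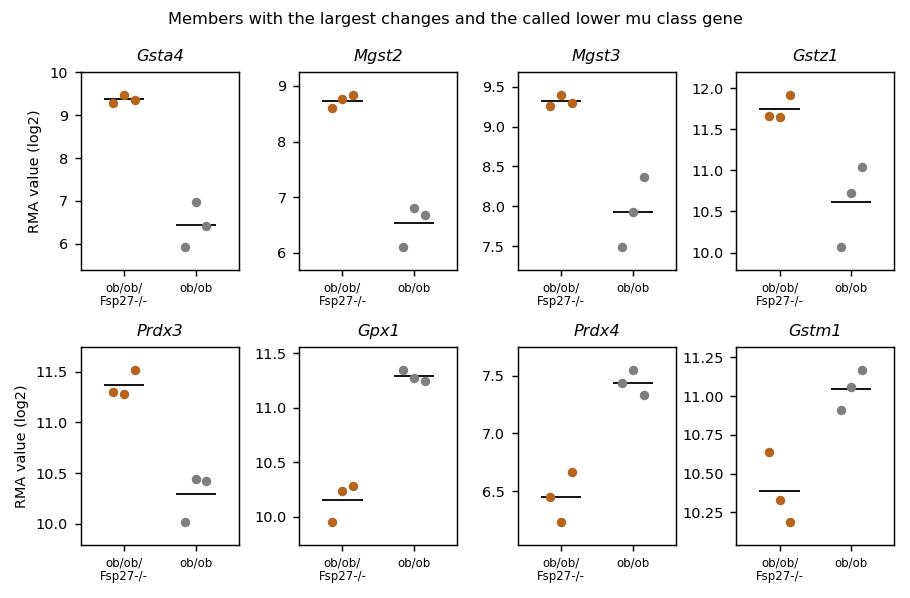
RMA values (log2) of 8 called genes on each array, ob/ob/Fsp27-/- left and ob/ob right, with a line at the mean of each genotype; each vertical axis has its own range. Gsta4, Mgst2, Mgst3, Gstz1 and Prdx3 are higher on every ob/ob/Fsp27-/- array than on any ob/ob array, and Gpx1, Prdx4 and Gstm1 are lower on every one.

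The mu class held calls in both directions. Gstm1 read 10.64, 10.33 and 10.19 on the ob/ob/Fsp27-/- arrays, against 10.91, 11.06 and 11.17 on the ob/ob arrays, and fell without overlap (log2 fold change -0.66, standard error 0.13, adjusted p = 0.00947, limma). Gstm2 read 9.93, 9.77 and 9.88 on the ob/ob/Fsp27-/- arrays, against 8.94, 9.32 and 9.42 on the ob/ob arrays, and rose without overlap (log2 fold change 0.64, standard error 0.13, adjusted p = 0.0111, limma). Neither call held under every alternative. Gstm1 was no longer called lower with the arrays centred on ribosomal protein genes (-0.49), and Gstm2 fell short of the fold threshold without ob/ob array 1 (0.49). Mu class genes are close copies of one another, so a probeset of one may also take up transcripts of another, and the split between Gstm1 and Gstm2 is uncertain to that extent. Gstm3 differed by -0.40 (adjusted p = 0.0456, limma), under the fold threshold, and was called lower without ob/ob/Fsp27-/- array 1 (-0.53, adjusted p = 0.00757, limma), while its other probeset differed by 0.13 (adjusted p = 0.532, limma). Gstm4 differed by 0.02.

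Gstm5, Gstm6 and Gstm7 varied more between arrays than between genotypes. Gstm5 read 10.15, 8.42 and 8.41 on the ob/ob/Fsp27-/- arrays, against 6.65, 8.38 and 7.63 on the ob/ob arrays. Gstm7 read 10.08, 7.50 and 7.48 on the ob/ob/Fsp27-/- arrays, against 6.63, 7.97 and 7.35 on the ob/ob arrays. Gstm6 read 7.41, 4.42 and 4.11 on the ob/ob/Fsp27-/- arrays, against 4.48, 5.53 and 5.002 on the ob/ob arrays. In all 3 genes ob/ob/Fsp27-/- array 1 was highest and ob/ob array 2 was the highest of the ob/ob arrays, and none was called (log2 fold changes 1.44, 1.04 and 0.31 for Gstm5, Gstm7 and Gstm6, adjusted p = 0.109, 0.333 and 0.816, limma). Without ob/ob/Fsp27-/- array 1 the log2 fold changes were 0.86, 0.17 and -0.74. The genotypes of Gstm5 did not overlap, with ob/ob array 2 (8.38) just under the lowest ob/ob/Fsp27-/- value (8.41). Those of Gstm6 and Gstm7 did overlap. Gstm5 was called higher with the arrays centred on housekeeping genes (1.64, adjusted p = 0.0454, limma).

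Epithelial and ciliated cell genes, a list of 12 chosen after the values were seen, had the same 2 arrays high. A likeness found in this way is built into the choice and is no evidence of a link. Of the 12, 8 averaged under the median of all values. Epcam, an epithelial adhesion molecule, read 7.90, 4.77 and 4.63 on the ob/ob/Fsp27-/- arrays, against 4.54, 5.87 and 4.57 on the ob/ob arrays. Prom1, a protein of apical membrane protrusions, read 8.38, 5.03 and 5.23 on the ob/ob/Fsp27-/- arrays, against 4.92, 6.45 and 5.10 on the ob/ob arrays. The summed brightness of the 12 was 4126, 951 and 886 on the ob/ob/Fsp27-/- arrays and 638, 1304 and 615 on the ob/ob arrays. None of the 12 was called with all arrays. Adgrg2 was called higher without ob/ob array 2 (3.03, adjusted p = 0.0448, limma), and Cldn7 without ob/ob/Fsp27-/- array 3 (0.90, adjusted p = 0.0315, limma). Of 11 epididymis markers none was called, and their sums were 646, 514 and 458 on the ob/ob/Fsp27-/- arrays and 406, 540 and 494 on the ob/ob arrays. Among these 11 markers, 10 averaged under the median of all values. The part of such cells in the values of Gstm5, Gstm6 and Gstm7 was not tested. Without ob/ob/Fsp27-/- array 1, but with ob/ob array 2 kept, Gsta4, Mgst2 and Gpx1 differed by 2.97, 2.28 and -1.03 and were called. The part of such cells in their values was not tested either.

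**Figure D3:**
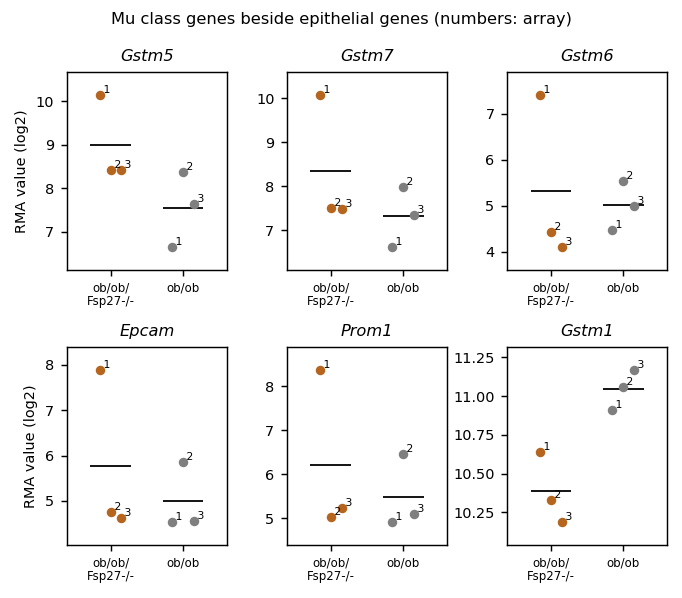
RMA values (log2) of 4 mu class transferase genes and of the epithelial genes Epcam and Prom1 on each array, ob/ob/Fsp27-/- left and ob/ob right; numbers name the array and lines mark genotype means. For Gstm5, Gstm7, Gstm6, Epcam and Prom1, ob/ob/Fsp27-/- array 1 stands above all others and ob/ob array 2 above the other ob/ob arrays, whereas Gstm1 is lower on every ob/ob/Fsp27-/- array.

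Among the 8 glutathione peroxidases Gpx1 fell and Gpx4 rose. Gpx1, a selenoenzyme that reduces hydrogen peroxide, read 9.96, 10.24 and 10.28 on the ob/ob/Fsp27-/- arrays, against 11.35, 11.27 and 11.25 on the ob/ob arrays. The ob/ob arrays agreed closely and lay above all ob/ob/Fsp27-/- arrays, so that Gpx1 was 2.19-fold lower in ob/ob/Fsp27-/- GWAT (log2 fold change -1.13, standard error 0.10, adjusted p = 0.000365, limma). Gpx4, the selenoenzyme that reduces phospholipid hydroperoxides in membranes, read 10.56, 11.06 and 10.92 on the ob/ob/Fsp27-/- arrays, against 9.96, 10.25 and 10.52 on the ob/ob arrays, with ob/ob/Fsp27-/- array 1 only just above ob/ob array 3 (log2 fold change 0.61, standard error 0.18, adjusted p = 0.0413, limma). Its call was lost without ob/ob arrays 1 (0.47) or 2 (0.61), and without arrays 2 (0.50) or 3 (0.57) of ob/ob/Fsp27-/-, though its other probeset was called as well (0.65, adjusted p = 0.0288, limma). Gpx3, the secreted peroxidase of plasma, read 10.56, 10.25 and 10.10 on the ob/ob/Fsp27-/- arrays, against 10.08, 10.66 and 10.47 on the ob/ob arrays, with overlapping genotypes (log2 fold change -0.10, standard error 0.18, adjusted p = 0.725, limma). Gpx8, a peroxidase of the endoplasmic reticulum, differed by -0.49 (adjusted p = 0.0612, limma). It was called lower without ob/ob/Fsp27-/- array 1 (-0.61, adjusted p = 0.0376, limma). Gpx2, Gpx5, Gpx6 and Gpx7 differed by -0.19 to 0.21 without being called.

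Of the 5 peroxiredoxin entries 2 rose and 2 fell. Prdx3, the peroxiredoxin of mitochondria, read 11.30, 11.28 and 11.52 on the ob/ob/Fsp27-/- arrays, against 10.02, 10.44 and 10.42 on the ob/ob arrays. The genotypes lay well apart, with a 2.11-fold increase (log2 fold change 1.08, standard error 0.14, adjusted p = 0.00138, limma). Prdx4, which acts in the endoplasmic reticulum, read 6.44, 6.23 and 6.66 on the ob/ob/Fsp27-/- arrays, against 7.44, 7.55 and 7.33 on the ob/ob arrays, every ob/ob/Fsp27-/- array being below every ob/ob array (log2 fold change -0.99, standard error 0.12, adjusted p = 0.00129, limma).

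Prdx1, an abundant cytosolic peroxiredoxin, read 11.62, 11.34 and 11.54 on the ob/ob/Fsp27-/- arrays, against 12.37, 12.08 and 11.77 on the ob/ob arrays. It fell with no overlap, but ob/ob array 3 was close to the ob/ob/Fsp27-/- arrays (log2 fold change -0.57, standard error 0.16, adjusted p = 0.0345, limma). The call was lost without any 1 of the arrays other than ob/ob array 3 and ob/ob/Fsp27-/- array 1 (-0.59 to -0.42), in both centrings on other genes (-0.40 and -0.37) and on the other Prdx1 probeset (-0.65, adjusted p = 0.0668, limma). Prdx2, its close relative in the cytosol, differed by 0.23 and was not called (adjusted p = 0.0946, limma). Prdx6-ps2 read 8.13, 8.004 and 8.25 on the ob/ob/Fsp27-/- arrays, against 7.48, 7.37 and 7.41 on the ob/ob arrays, and rose (log2 fold change 0.70, standard error 0.09, adjusted p = 0.00136, limma); a pseudogene probeset may also take up transcripts of its parent gene Prdx6, which was not analysed here.

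In the thioredoxin system the 2 genes of the mitochondrial pair rose. Txn2, the mitochondrial thioredoxin, read 10.13, 10.24 and 10.35 on the ob/ob/Fsp27-/- arrays, against 9.27, 9.39 and 9.57 on the ob/ob arrays, and Txnrd2, the mitochondrial reductase that recharges it, read 7.40, 7.59 and 7.56 on the ob/ob/Fsp27-/- arrays, against 6.74, 6.84 and 7.03 on the ob/ob arrays. In neither gene did an array of one genotype reach the range of the other (log2 fold change 0.83, standard error 0.10, adjusted p = 0.00132, limma for Txn2 and log2 fold change 0.65, standard error 0.10, adjusted p = 0.00356, limma for Txnrd2). Txn1, the cytosolic thioredoxin, averaged 12.39 ± 0.08 in ob/ob/Fsp27-/- and 12.84 ± 0.10 in ob/ob GWAT (SD, n = 3 each), a difference of -0.45 that passed the adjusted p (0.00755, limma) but not the fold threshold. Txnrd3, a reductase best known from testis, differed by 0.46, also past the adjusted p only (adjusted p = 0.0175, limma). Txnip, which binds and inhibits thioredoxin, read 11.55, 11.64 and 11.71 on the ob/ob/Fsp27-/- arrays, against 11.82, 12.09 and 11.91 on the ob/ob arrays, without overlap but short of both thresholds (log2 fold change -0.31, standard error 0.10, adjusted p = 0.0538, limma).

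A list of mitochondrial enzymes held Sod2, the manganese dismutase, Prdx3, Txn2, Txnrd2 and Gstk1 among the 49 genes, of which 4 of 5 rose and the arrays of those 4 did not overlap. Over all 5 the median on the log2 scale was that of Gstk1 (0.78), against 0.12 over the other 44 genes. Mgst1, which lies in both the endoplasmic reticulum and mitochondria, was not in this list and was not called. Gpx1, which fell, and Gpx4, which rose, were not in the list either, and the count depends on such choices. Prdx5 was listed but was not among the 49 genes. Sod2 read 11.55, 11.62 and 11.65 on the ob/ob/Fsp27-/- arrays, against 10.85, 11.18 and 11.27 on the ob/ob arrays, and stood just past the fold threshold (log2 fold change 0.51, standard error 0.12, adjusted p = 0.0167, limma); leaving out ob/ob array 1 gave 0.39, and it also lost its call without ob/ob/Fsp27-/- array 2 (adjusted p = 0.0557, limma) or array 3 (adjusted p = 0.0532, limma). Sod1, the copper and zinc dismutase of the cytosol, read 11.34, 11.36 and 11.27 on the ob/ob/Fsp27-/- arrays, against 10.89, 10.92 and 11.11 on the ob/ob arrays, which passed the adjusted p only (log2 fold change 0.35, standard error 0.09, adjusted p = 0.0226, limma). Sod3, the secreted dismutase, read 9.71, 9.73 and 9.88 on the ob/ob/Fsp27-/- arrays, against 9.09, 9.52 and 9.58 on the ob/ob arrays, with no overlap and no call (log2 fold change 0.38, standard error 0.14, adjusted p = 0.0889, limma). Both would be called higher with the arrays centred on ribosomal protein genes (0.52 and 0.54).

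None of the 4 genes of glutathione synthesis and reduction was called. Gclc, the catalytic subunit of glutamate-cysteine ligase, read 8.63, 8.82 and 8.57 on the ob/ob/Fsp27-/- arrays, against 9.30, 8.85 and 8.55 on the ob/ob arrays. Gclm, the modifier subunit of the same enzyme, read 10.05, 9.80 and 9.97 on the ob/ob/Fsp27-/- arrays, against 11.10, 10.52 and 9.97 on the ob/ob arrays. In both genes ob/ob array 1 was the highest of all 6 arrays and ob/ob array 3 fell within the ob/ob/Fsp27-/- range or under it (log2 fold change -0.23, standard error 0.19, adjusted p = 0.415, limma for Gclc and log2 fold change -0.59, standard error 0.26, adjusted p = 0.139, limma for Gclm). Gsr, glutathione reductase, read 9.06, 9.03 and 8.86 on the ob/ob/Fsp27-/- arrays, against 9.69, 9.09 and 8.80 on the ob/ob arrays, with ob/ob array 1 highest and ob/ob array 3 lowest of the 6 (log2 fold change -0.21, standard error 0.21, adjusted p = 0.522, limma). Gss, glutathione synthetase, read 7.69, 7.83 and 7.77 on the ob/ob/Fsp27-/- arrays, against 7.48, 7.27 and 7.48 on the ob/ob arrays, higher on every ob/ob/Fsp27-/- array and past the adjusted p but not the fold threshold (log2 fold change 0.35, standard error 0.09, adjusted p = 0.0247, limma). Nqo1, a quinone reductase used as a marker of Nrf2 activity, read 5.43, 5.72 and 5.35 on the ob/ob/Fsp27-/- arrays, against 6.43, 5.40 and 5.72 on the ob/ob arrays, with overlapping genotypes and ob/ob array 1 again highest (log2 fold change -0.35, standard error 0.25, adjusted p = 0.349, limma).

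Txnrd1, the cytosolic thioredoxin reductase, read 8.51, 8.57 and 8.38 on the ob/ob/Fsp27-/- arrays, against 9.94, 9.19 and 8.79 on the ob/ob arrays. All ob/ob arrays lay above the ob/ob/Fsp27-/- arrays, but by amounts that ranged over 1.14 on the log2 scale among the ob/ob arrays, and the gene was not called (log2 fold change -0.82, standard error 0.26, adjusted p = 0.0551, limma). It was called lower without ob/ob array 1 (-0.51, adjusted p = 0.0468, limma) and without ob/ob array 3 (-1.08, adjusted p = 0.0128, limma), and Gclm was called lower without ob/ob array 3 (-0.87, adjusted p = 0.0157, limma) but was at -0.31 without ob/ob array 1 (adjusted p = 0.281, limma). Txnrd1, Gclm, Gclc, Gsr, Nqo1 and Prdx1, named together after their values were seen, were each highest on ob/ob array 1, as were Gpx1, Txn1 and Gstp3. Over the 49 genes 24.5% had their highest ob/ob value on that array, against 36.4% of all genes. Srxn1, a sulfiredoxin that repairs peroxiredoxins, read 8.31, 8.60 and 8.31 on the ob/ob/Fsp27-/- arrays, against 9.76, 8.78 and 8.61 on the ob/ob arrays. Slc7a11, the cystine transporter subunit that feeds glutathione synthesis, read 5.69, 5.78 and 5.91 on the ob/ob/Fsp27-/- arrays, against 8.05, 6.49 and 5.59 on the ob/ob arrays, and neither was called (log2 fold changes -0.65 and -0.92, adjusted p = 0.142 and 0.263, limma), although Slc7a11 was called lower without ob/ob array 3 (-1.48, adjusted p = 0.0427, limma).

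The ob/ob arrays as a whole were less alike in these genes than the ob/ob/Fsp27-/- arrays. The range over the 3 arrays had a median of 0.25 in ob/ob/Fsp27-/- and 0.41 in ob/ob over the 49 genes, beside 0.23 and 0.20 over all genes. Of the 49 genes, 31 ranged more widely in ob/ob, while 9048 of the 19937 genes in all did so. On ob/ob array 1, 30 of the 49 genes (61.2%) had their lowest ob/ob value, against 34.3% of all genes, and 18 of the 22 transferases did. ob/ob array 1 also had the highest sum of macrophage markers of the ob/ob arrays (35823, against 32525 and 27666) and the lowest sum of adipocyte markers (42038, against 52807 and 59450), and their part in the spread was not tested.

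**Figure D4:**
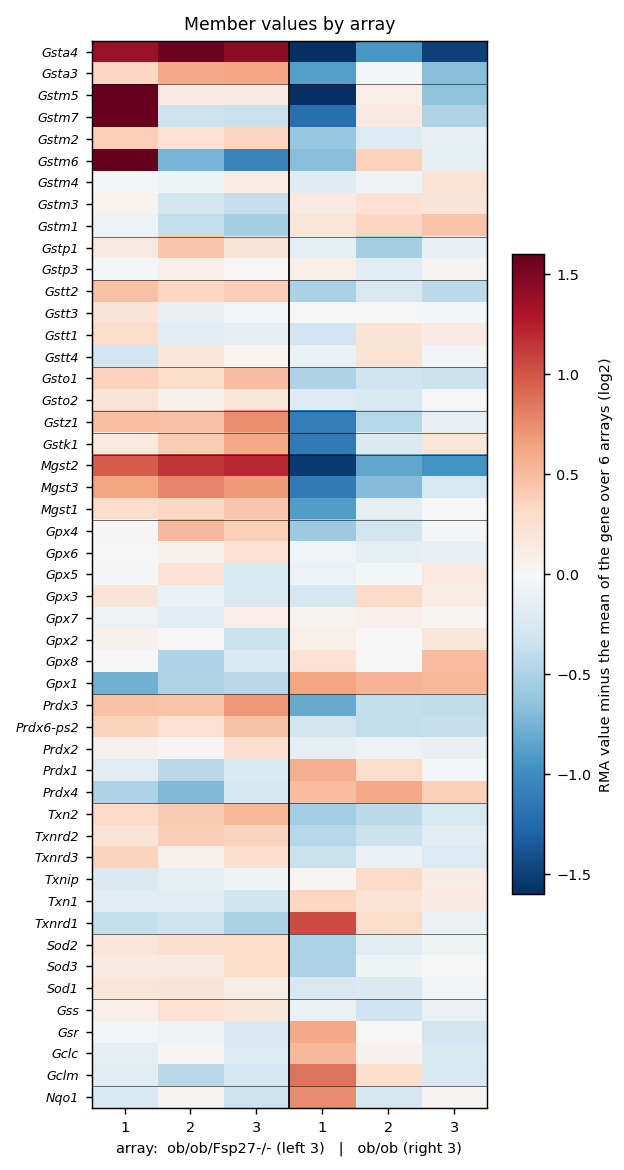
Each of the 49 genes on each of the 6 arrays, as the RMA value minus the mean of the gene over all arrays (log2, colour scale from -1.6 to 1.6 with values beyond it shown at its ends), ob/ob/Fsp27-/- arrays left and ob/ob arrays right, rows grouped by enzyme class. On ob/ob array 1, 18 of the 22 transferase rows have their lowest ob/ob value, the rows of Txnrd1, Gclm, Gclc, Gsr and Nqo1 are darkest red there, and Gstm5, Gstm6 and Gstm7 are darkest red on ob/ob/Fsp27-/- array 1.

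**Figure D5:**
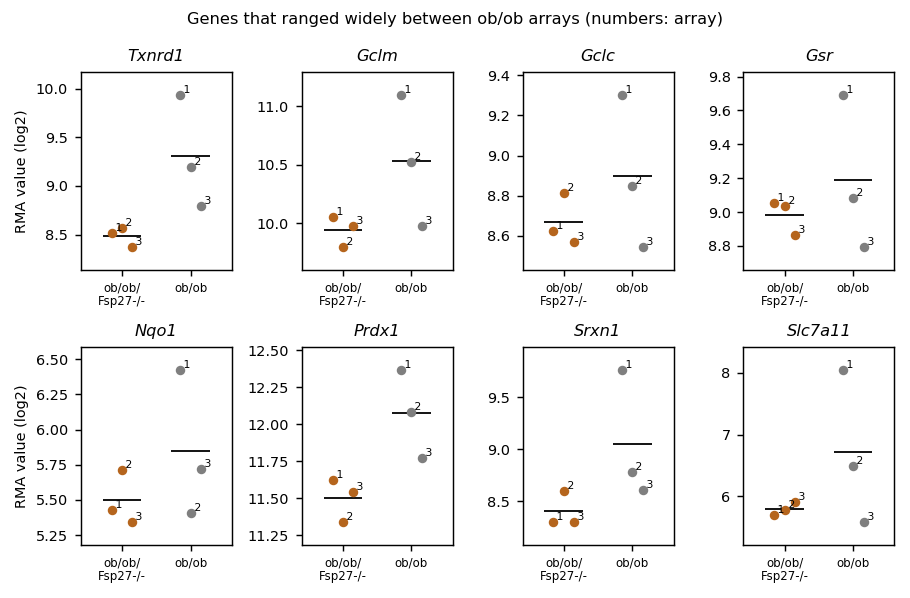
RMA values (log2) of 8 genes that were highest on ob/ob array 1, ob/ob/Fsp27-/- left and ob/ob right; numbers name the array, lines mark genotype means and each vertical axis has its own range. Of the 8, Prdx1 is called lower, and ob/ob array 3 lies within or under the ob/ob/Fsp27-/- range for Gclm, Gclc, Gsr and Slc7a11.

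Of 12 regulators of the Nrf2 pathway 1 rose (8.33%) and 2 fell (16.7%). Over all genes 9.58% rose and 10.8% fell, and the counts of the lists below stand beside the same shares. Nfe2l2, which encodes Nrf2, read 9.91, 9.85 and 9.88 on the ob/ob/Fsp27-/- arrays, against 10.69, 10.64 and 10.63 on the ob/ob arrays. It fell with almost no spread within a genotype (log2 fold change -0.77, standard error 0.07, adjusted p = 0.00036, limma). Bach1, a repressor of the same promoters, read 7.77, 7.91 and 7.67 on the ob/ob/Fsp27-/- arrays, against 9.11, 8.75 and 8.63 on the ob/ob arrays, and fell as well (log2 fold change -1.05, standard error 0.14, adjusted p = 0.00163, limma). Nfe2l1, a related factor of the endoplasmic reticulum, rose by 0.51 (adjusted p = 0.00739, limma) and was not called when any 1 of 4 arrays was left out (0.44 to 0.50). Keap1, the adaptor that marks Nrf2 for degradation, read 7.85, 7.95 and 7.77 on the ob/ob/Fsp27-/- arrays, against 7.70, 7.57 and 7.66 on the ob/ob arrays and was not called (log2 fold change 0.21, standard error 0.08, adjusted p = 0.105, limma).

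Of 21 other known Nrf2 target genes 8 fell and 1 rose, and 6 to 9 fell with 1 array left out. The largest decrease was that of Akr1b8, an aldo-keto reductase, which read 7.44, 7.45 and 7.59 on the ob/ob/Fsp27-/- arrays, against 11.05, 10.46 and 10.14 on the ob/ob arrays (log2 fold change -3.06, standard error 0.21, adjusted p = 0.000132, limma). Ptgr1, a reductase of reactive alkenals and prostaglandins, fell by 1.87 on the log2 scale and Abcc3, a pump for glutathione and glucuronide conjugates, by 1.12 (adjusted p = 0.00663 and 0.00561, limma). Hmox1, heme oxygenase, read 9.37, 9.54 and 9.89 on the ob/ob/Fsp27-/- arrays, against 11.00, 10.30 and 10.15 on the ob/ob arrays, and was called lower (log2 fold change -0.88, standard error 0.24, adjusted p = 0.029, limma) except without array 2 of either genotype or array 1 of ob/ob/Fsp27-/- (-0.97 to -0.77). The increase was that of Aox1, aldehyde oxidase (1.29, adjusted p = 0.000365, limma). Several of these genes are also used by macrophages, and macrophage markers fell in the same samples, as given above. The part of macrophages in these decreases was not tested.

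Lists of genes of NADPH supply and of cysteine metabolism held more calls higher than lower. Of 11 NADPH genes 4 rose, namely Aldh1l1, a folate enzyme (1.56), Me1, malic enzyme (0.81), Idh2, the mitochondrial isocitrate dehydrogenase (0.79), and Taldo1, transaldolase (0.69, and not called without ob/ob array 2 at 0.62). Nnt, the transhydrogenase of the inner mitochondrial membrane, fell by 0.90 on the log2 scale (adjusted p = 0.0252, limma), and lost its call when array 2 of ob/ob (-0.80) or of ob/ob/Fsp27-/- (-0.95) was left out. Of 12 genes of cysteine transport, transsulfuration and cysteine use 4 rose and none fell. Cdo1, which oxidises cysteine to its sulfinate, rose by 1.52 and Csad, which acts next on the way to taurine, by 1.33 (adjusted p = 0.0112 and 0.00037, limma). Cbs, the first enzyme of transsulfuration, rose by 0.77 and Slc1a4, a neutral amino acid carrier, by 0.60. Slc1a4 was not called when array 1 or array 2 of either genotype was left out (0.46 to 0.61). Cth, the next enzyme, read 8.88, 9.08 and 9.12 on the ob/ob/Fsp27-/- arrays, against 6.44, 7.995 and 8.35 on the ob/ob arrays and was just short of the call (log2 fold change 1.43, standard error 0.45, adjusted p = 0.0508, limma), and it was called higher without ob/ob array 1 (0.85) or ob/ob array 3 (1.81).

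Genes of glutathione breakdown and of the glyoxalase pathway changed in both directions. Of 15 genes 5 rose and 4 fell. Oplah, the oxoprolinase that returns glutamate from the glutathione cycle, read 9.65, 9.84 and 9.89 on the ob/ob/Fsp27-/- arrays, against 6.86, 7.36 and 7.54 on the ob/ob arrays, a 5.82-fold increase (log2 fold change 2.54, standard error 0.18, adjusted p = 0.000132, limma). Chac1, which cleaves glutathione in the cytosol, rose by 1.13, Hagh and Glo1, the enzymes of the glyoxalase pathway, by 0.77 and 0.55, and Lap3, a leucine aminopeptidase, by 0.51. Without ob/ob array 1, 3 of the 15 rose, as Glo1 (0.50) and Lap3 (0.43) fell short of the fold threshold, and Lap3 also did so without ob/ob/Fsp27-/- array 1 (0.48). Dpep2, a dipeptidase of the cell surface, read 6.31, 6.47 and 6.21 on the ob/ob/Fsp27-/- arrays, against 10.27, 10.06 and 9.89 on the ob/ob arrays (log2 fold change -3.74, standard error 0.12, adjusted p = 1.65e-05, limma). Anpep, aminopeptidase N, which splits cysteinylglycine, fell by 2.82 on the log2 scale, and Cndp2, a cytosolic dipeptidase, fell by 1.596 (adjusted p = 5.6e-05 and 0.000652, limma). Esd, which hydrolyses formylglutathione, fell by 0.95 (adjusted p = 0.0180, limma), and with array 2 of either genotype left out it was not called (-0.94 each).

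Thiol repair genes rose in 6 of 12 cases and fell in 1. Sesn2, a stress-induced sestrin, rose by 1.78, Glrx5, a mitochondrial glutaredoxin of iron-sulfur cluster assembly, by 1.43, Msrb2, a mitochondrial methionine sulfoxide reductase, by 1.26, and Msra, its counterpart for the other sulfoxide form, by 0.86 (adjusted p = 0.000662, 0.000387, 0.00215 and 0.00261, limma). Sesn1 fell by 1.17 on the log2 scale (adjusted p = 0.000687, limma).

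Cat, the peroxisomal catalase that shares hydrogen peroxide with Gpx1, read 12.73, 12.70 and 12.84 on the ob/ob/Fsp27-/- arrays, against 12.10, 12.05 and 12.12 on the ob/ob arrays. It rose with little spread (log2 fold change 0.66, standard error 0.08, adjusted p = 0.000928, limma), opposite to Gpx1. In its list of 12, which also holds paraoxonases and metallothioneins, Aifm2, a coenzyme Q reductase, rose by 1.28 and Park7, a redox chaperone, by 0.87, while Mt2 and Mt1, the metallothioneins, fell by 1.19 and 0.74 on the log2 scale and Nqo2, a quinone reductase, fell by 0.98. Of 21 genes of selenoprotein synthesis and other selenoproteins 3 rose (14.3%, against 9.58% of all genes) and 1 fell (4.76%, against 10.8%). Sephs2, which makes the selenium donor for selenocysteine, rose by 1.02, Selenoo by 0.70 and Dio2, an iodothyronine deiodinase, by 0.53, and Selenon, a protein of the endoplasmic reticulum, fell by 0.79 on the log2 scale (adjusted p = 0.000382, 0.00617, 0.0226 and 0.00163, limma). Dio2 lost its call when any 1 of 4 arrays was left out (0.41 to 0.55).

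Of 12 aldehyde and drug metabolism genes that do not use glutathione, 3 rose (25%, against 9.58% of all genes) and 2 fell (16.7%, against 10.8%). Ephx2, soluble epoxide hydrolase, rose by 1.93, Adh1, an alcohol dehydrogenase, by 1.12 and Akr7a5, an aflatoxin aldehyde reductase, by 0.78 (adjusted p = 0.00051, 0.0076 and 0.000928, limma). Aldh3b1, a membrane-bound aldehyde dehydrogenase, fell by 1.45 on the log2 scale and Akr1a1, an aldehyde reductase, by 0.54 (adjusted p = 0.000159 and 0.00297, limma), Akr1a1 not being called without ob/ob array 1 (-0.49). NADPH oxidases produce the superoxide on which the dismutases act, and of 12 such genes 6 fell and none rose. The 4 largest decreases were those of Cybb (-2.83), Ncf1 (-2.72), Cyba (-2.64) and Ncf4 (-2.30), all subunits of the phagocyte enzyme (adjusted p = 5.2e-05, 0.000384, 4.5e-05 and 0.000294, limma). The macrophage markers given above fell in the same samples, and their part in these decreases was not tested.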

How the data were processed

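RNA from GWAT was amplified in a 2-round protocol, labelled and hybridised to 3 GeneChip Mouse Gene 1.0 ST arrays for each genotype. The table deposited by the authors holds log2 values. Per the methods, they adjusted the background, normalised between arrays by quantiles and summarised each probeset with RMA, which removes a shift shared by most genes. No version of RMA or of the authors' limma is stated, and their filter on detection above background was not repeated. Precision is limited by 3 arrays per genotype, and no scan date or batch was given. The methods describe 3 RNA pools per genotype, each of 3 mice (9 mice per genotype), which the labels do not mention. The p-values measure only the spread between these arrays and not that between single mice.

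Of 34760 probesets, 21640 have 1 gene symbol, 1321 several and 11799 none, with 21553 symbols updated by Entrez number. The 22961 with a symbol were fitted in R 4.3.3 with limma 3.58.1 (lmFit, eBayes), ob/ob/Fsp27-/- minus ob/ob, with Benjamini-Hochberg adjustment, and the script was tested on simulated data. For a gene with several probesets that carry its symbol alone, the one with the highest mean stood for it: 45 of the 49 genes have 1 such probeset, and Gpx4, Gstm3, Prdx1 and Prdx2 have 2. Fold change and threshold follow the methods. The genes and lists were chosen from general knowledge with earlier results of these data known. Per-array values are given for up to 16 called genes with the largest changes, for a fixed set of central genes and for genes called against their class, and up to 4 called genes per direction are named in each list; a gene named outside this was chosen after its values were seen. In all, 21 alternatives were tried: other probeset filters, normalisations, fits and thresholds, each array left out in turn, and, chosen after seeing the data, centring on 55 ribosomal protein genes or 7 housekeeping genes and the other probeset of the 4 genes. Protein sequences were not used here. Python 3.11.15 with matplotlib 3.10.9 drew the figures.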

Additional observations from a re-analysis of the deposited data

How the results depend on the processing

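No called gene of the 49 turned direction under any of the 21 alternatives. Of the 19 called genes, 14 kept their call whichever array was left out, and 5 kept it under every alternative. The count called higher was 15, and 12 to 17 with 1 array left out; the count called lower was 4, and 3 to 6. The median log2 fold change of the 49 genes was 0.31, and 0.22 to 0.32 with 1 array left out. The methods' t-test, which they name for measurements other than these arrays, gave on the same values 9 higher and 2 lower after Benjamini-Hochberg, without Gsta3, Gstz1, Gstm1, Gstm2, Gstp1, Gpx4, Prdx1 and Sod2 (adjusted p = 0.0577 to 0.142), and a threshold of 1 on the log2 fold change gave 6 and 1, fewer genes by construction. Centring on ribosomal protein genes raised every log2 fold change by 0.17 and gave 21 higher and 2 lower, and centring on housekeeping genes raised it by 0.20 and gave 23 higher, 2 lower and a median of 0.51. Relative to the all-gene medians of 0.22 and 0.26 under these centrings the changes are those of the main values. Over all genes the calls were 1910 higher and 2158 lower (47.0% higher), against 3117 and 1593 (66.2%) with ribosomal and 3445 and 1500 (69.7%) with housekeeping centring, and the cause of that shift was not tested. The signs that turned were those of 12 uncalled genes. With ribosomal or housekeeping centring Gstt1 was at 0.15 or 0.18, Gstt4 at 0.12 or 0.15, Gpx3 at 0.068 or 0.10, Gpx5 at 0.14 or 0.18 and Gpx7 at 0.057 or 0.090, and Gpx2 at 0.0099 with housekeeping centring. Gstp3 was at -0.021 with cyclic loess, and Gstm3 at 0.13 on its other probeset. With 1 array left out, Gstp3 ranged over -0.050 to 0.087, Gstm4 over -0.076 to 0.13, Gsr over -0.41 to 0.043, Gstt1 over -0.17 to 0.079, Gstt3 over -0.058 to 0.11, Gstt4 over -0.16 to 0.090, Gpx3 over -0.26 to 0.032, Gpx5 over -0.15 to 0.096 and Gstm6 over -0.74 to 0.91. No paired analysis was possible because the labels give the genotypes no shared replicate numbers. Gpx2, Gpx5, Gpx6, Gsto2, Gstp3 and Gstt4 read under the median of all probesets on every array. Nqo1 did so on every array but ob/ob array 1, and Gstm6 on every array but ob/ob/Fsp27-/- array 1. The distance of these genes from background was not measured.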

Other observations

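Probesets that carry several symbols were left out of the counts. Of 2 probesets shared by Gstp1 and Gstp2, 1 read 8.28, 8.55 and 8.47 on the ob/ob/Fsp27-/- arrays, against 8.19, 8.02 and 8.18 on the ob/ob arrays, and the other 7.14, 7.45 and 7.50 on the ob/ob/Fsp27-/- arrays, against 7.23, 7.01 and 6.82 on the ob/ob arrays. Their log2 fold changes were 0.30 and 0.34 and neither passed the adjusted p (0.0638 and 0.117, limma), while the probeset of Gstp1 alone was called higher at 0.53. The 3 probesets shared by Gsta1, Gsta2 and 2 predicted genes had log2 fold changes of 0.11, 0.04 and -0.08 with means of 3.41, 3.60 and 5.11 in ob/ob/Fsp27-/- and 3.31, 3.56 and 5.20 in ob/ob GWAT, and none was called, so the increase of the alpha class was measured in Gsta3 and Gsta4 only. The other probeset of Prdx2 read 9.15, 9.16 and 9.32 on the ob/ob/Fsp27-/- arrays, against 8.84, 8.92 and 9.01 on the ob/ob arrays (log2 fold change 0.29, adjusted p = 0.0440, limma), under the fold threshold like the probeset used.

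Markers of other cell types were read with the same fit. None of 6 B cell markers was called by limma with all arrays, with a median log2 fold change of 0.72, but without ob/ob/Fsp27-/- array 1 Cd79a (1.76), Ms4a1 (1.57), Cd79b (1.10) and Cr2 (0.87) were called higher. Centring on ribosomal protein or housekeeping genes called 4 or 5 of them higher. The summed brightness of the B cell markers was 311, 468 and 700 on the ob/ob/Fsp27-/- arrays and 253, 282 and 292 on the ob/ob arrays. Of these 6 markers, 5 averaged under the median of all values, and their distance from background was not measured. None of 7 T cell markers was called with all arrays, and 2 were called lower without ob/ob array 3. Here 6 of the 7 averaged under the median of all values. None of 6 mesothelium markers was called with all arrays, and 1 was called higher without ob/ob array 2. Of 2 erythroid markers 1 rose with all arrays, and both did when array 2 of ob/ob/Fsp27-/- or array 1 of ob/ob was left out. The part of these cell types in the differences of the 49 genes was not tested.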
